A study of Drosophila melanogaster with 2 samples.

Results

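The chorion genes of Drosophila melanogaster were followed in testis chromatin, where dBigH1, the linker histone variant of the germline, was profiled by ChIP-seq. They were taken by name from the deposited gene table: Cp7Fa, Cp7Fb, Cp7Fc, Cp36 and Cp38 in a cluster on the X, Cp18, Cp15, Cp19 and Cp16 in a cluster on chromosome arm 3L, and dec-1 alone on the X. All 10 were present among 15421 listed genes. The symbol cell of dec-1 held a calendar date, as did those of 5 genes in all, and dec-1 was identified by its gene identifier (FBgn0000427) and its full name, defective chorion 1.

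There was 1 dBigH1 library and 1 input library, both from fixed whole testes of adult w1118 males with the accessory glands removed, so germline and somatic cells of the testis were averaged and no value has a replicate check. The input library had no antibody and the dBigH1 library an antibody to dBigH1, and the labels name no other difference. Ovaries were not analysed here, and the cells could not be checked by markers because DNA carries no expression. The male origin was visible in input, where the median X gene had 0.552 of the RPKM of the median gene of arms 2L, 2R, 3L and 3R. RPKM counts reads for each kb of gene length, adjusted for library size.

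Chorion proteins form the outer eggshell. Follicle cells of the ovary secrete them late in oogenesis, and those cells first raise the copy number of both chorion clusters by repeated firing of local replication origins. Males have no such cells, so the clusters serve here as genes that are not known to act in the tissue sampled. A linker histone binds DNA where it enters and leaves the nucleosome, and the comparison of dBigH1 with input asks how much of it each gene carried for its amount of DNA.

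The depth limits what can be said of single chorion genes. The libraries held 12747726 input and 2864636 dBigH1 reads, and the chorion genes had 50 to 354 input reads and 4 to 19 dBigH1 reads each. Values below are log2 ratios of dBigH1 to input reads, each divided by its library total and then expressed relative to the median gene of the table, which lay at -1.0 before this centring. Each has a 95% exact Clopper-Pearson interval that covers counting error only, because there was 1 library a group. Reads carried no molecular identifiers, so PCR copies may be counted as separate reads, and the intervals can then be too narrow. With 1 library a group no p-value was computed, and every difference describes these libraries.

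The X cluster as a whole had a ratio of dBigH1 to input near that of the median gene. Its 5 genes lie on the plus strand, from Cp7Fa to Cp38 over 12.4 kb, and together had 488 input reads and 49 dBigH1 reads over 8.95 kb of gene. Pooled, that was 4.28 RPKM in input and 1.91 RPKM in dBigH1, both below the 8.18 and 4.04 RPKM of the median gene. The pooled log2 read ratio was -0.16 (interval -0.61 to 0.27), so a pooled difference from the median gene was not detectable at this depth.

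Cp36 and Cp38 encode the major chorion proteins that follicle cells make first. Cp36 (FBgn0000359, build dm3, chromosome X, 8373352 to 8374556) had 4.49 RPKM in input and 2.61 RPKM in dBigH1, from 69 and 9 reads. Cp38 (FBgn0000360, X, 8375870 to 8377344) had 4.31 RPKM and 1.89 RPKM, from 81 and 8 reads. These neighbours were alike within counting error, with log2 read ratios of 0.22 (-0.97 to 1.23) for Cp36 and -0.18 (-1.44 to 0.87) for Cp38.

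Cp7Fa, Cp7Fb and Cp7Fc are the less abundant chorion genes of the same cluster. Cp7Fa (FBgn0014464, X, 8364921 to 8367120) had 3.49 RPKM in input and 1.11 RPKM in dBigH1, and Cp7Fb (FBgn0014465, X, 8367238 to 8370104) 4.49 RPKM and 1.46 RPKM. Cp7Fc (FBgn0014466, X, 8371150 to 8372353) stood higher, at 4.95 RPKM and 3.77 RPKM. In reads this was 98 input and 7 dBigH1 for Cp7Fa, 164 and 12 for Cp7Fb, and 76 and 13 for Cp7Fc. The log2 read ratios of Cp7Fa and Cp7Fb were close, at -0.65 (-2.00 to 0.45) and -0.61 (-1.60 to 0.23), and that of Cp7Fc was 0.61 (-0.36 to 1.47). All 3 intervals included the median gene.

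The 3L cluster also had a ratio near that of the median gene. Its 4 genes, likewise on the plus strand and spread over 5.81 kb, had 242 input reads and 31 dBigH1 reads over 2.81 kb of gene, or 6.77 RPKM and 3.86 RPKM. The pooled log2 read ratio was 0.19 (-0.40 to 0.74). No listed gene overlapped a gene of this cluster, so its reads were shared with no other gene of the table.

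Cp16 and Cp19 encode chorion proteins made in the middle of eggshell formation. Cp16 (FBgn0000356, 3L, 8725044 to 8725699) had 5.98 RPKM in input and 5.85 RPKM in dBigH1, from 50 and 11 reads, and its log2 read ratio of 0.97 (-0.12 to 1.93) was the highest of the 10 genes. It combined the lowest input level of the 3L cluster with the highest dBigH1 level of the 10 genes. Cp19 (FBgn0000358, 3L, 8722965 to 8723704) had 7.53 RPKM and 3.30 RPKM, from 71 and 7 reads, with a ratio of -0.18 (-1.55 to 0.93).

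Cp15 and Cp18 encode chorion proteins made last. Cp15 (FBgn0000355, 3L, 8721581 to 8722166) had 7.50 RPKM in input and 2.38 RPKM in dBigH1, from 56 and 4 reads, a ratio of -0.65 (-2.57 to 0.79). Cp18 (FBgn0000357, 3L, 8719891 to 8720713) had 6.20 RPKM and 3.82 RPKM, from 65 and 9 reads, a ratio of 0.31 (-0.89 to 1.32). Within the 3L cluster the 4 intervals overlapped, so the order of its genes is not resolved.

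**Figure D1:**
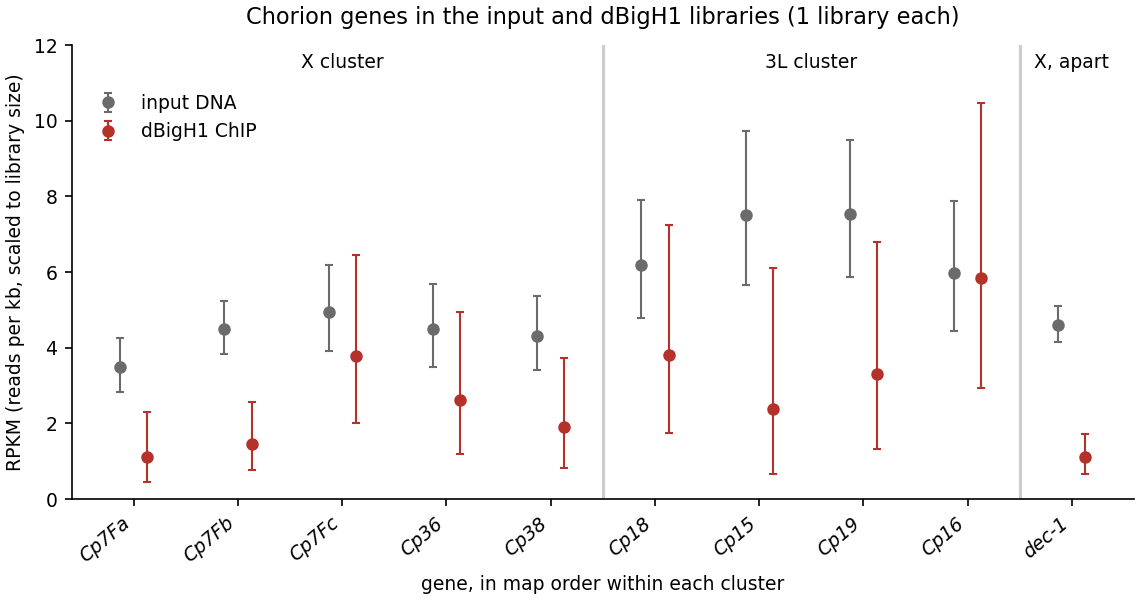
Level of each chorion gene in the input (grey) and dBigH1 (red) libraries, in RPKM on a linear axis, with 95% exact Poisson intervals of the reads. Levels in dBigH1 lie below input for all 10 genes, as for the median gene; the gap is smallest for Cp16 (5.98 and 5.85 RPKM) and, as a ratio, widest for dec-1 (4.61 and 1.10 RPKM).

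Grouped by the time at which follicle cells use them, a grouping chosen after the values were seen, the major chorion genes did not differ beyond counting error. The early pair Cp36 and Cp38 had a pooled log2 read ratio of 0.02 (-0.80 to 0.74). The middle pair Cp16 and Cp19 was at 0.41 (-0.39 to 1.13) and the late pair Cp15 and Cp18 at -0.06 (-1.01 to 0.77), each pair with 121 input reads. Middle minus late was 0.47 (-0.71 to 1.69), and early minus late was 0.08 (-1.12 to 1.30). Early minus middle was -0.39 (-1.50 to 0.72), and the early pair minus the pool of Cp7Fa, Cp7Fb and Cp7Fc was 0.26 (-0.73 to 1.20). These intervals, like all those given for a difference, are conditional exact 95% intervals of the ratio of pooled reads. There were 13 such differences, and the intervals are not adjusted for their number.

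The X and 3L clusters differed by -0.35 in pooled log2 read ratio, X minus 3L, with an interval from -1.07 to 0.39. Their dBigH1 levels of 1.91 and 3.86 RPKM thus moved with their input levels of 4.28 and 6.77 RPKM. Set against the median gene of its own arm, which was -0.12 for the X and 0.02 for 3L, neither pool left its interval.

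dec-1 was the one chorion gene whose interval lay wholly to one side of the median gene. It encodes an eggshell matrix protein of the follicle cells that is made as precursors and cleaved as the eggshell forms, and it lies 598 kb from the X cluster, on the minus strand (X, 7761232 to 7767255). With 6.02 kb it is also the longest of the 10 and had the most reads, 354 in input and 19 in dBigH1. Its level was 4.61 RPKM in input and 1.10 RPKM in dBigH1, so its dBigH1 level was the lowest of the 10 while its input level was ordinary for the X. The log2 read ratio was -1.06 (-1.81 to -0.40), which is 0.479 of the ratio of the median gene (0.285 to 0.760).

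The ratio of dec-1 was below that of the X cluster by 0.90 on the log2 scale, with an interval for dec-1 minus the cluster from -1.78 to -0.08. Without Cp7Fc in the cluster, a gene left out after the values were seen, it was -0.70 (-1.61 to 0.17). The difference was then smaller and within counting error. dec-1 shares 396 bp with FBgn0263590, a gene without a symbol in the table, whose own ratio on 4 dBigH1 reads was -0.09 (-2.04 to 1.38). The low value of dec-1 was not an extreme one for its chromosome: 11.5% of 2317 X genes had a lower read ratio, and 13.1% of X genes had an interval wholly below the median gene. On the MAnorm column of the authors' deposited table dec-1 had -0.20. Of X genes, 27.8% had a lower value in that column.

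Of the 10 chorion genes, 2 lay at least 1.5-fold above the median gene, Cp16 and Cp7Fc, beside 16.2% of all genes. Another 4, dec-1, Cp7Fa, Cp15 and Cp7Fb, lay at least 1.5-fold below it, beside 17.3% of all genes and 27.5% of X genes. Of 5402 genes of 300 to 1500 bp, 1294 passed this lower mark and 1081 the upper one. The intervals of Cp7Fa, Cp15 and Cp7Fb included the median gene, and an excess of low chorion genes was not tested. By the interval, 0 of 10 were wholly above the median gene, beside 17.9% of all genes, and 1 of 10 was wholly below it, beside 9.41%. The share wholly below is near that of all genes and is not a result about the chorion genes. Of the 5402 genes of 300 to 1500 bp, 564 had an interval wholly above the median gene and 349 one wholly below. Whether an interval leaves out the median gene depends on the reads of a gene, so 0 of 10 is not read as a deficit. The median log2 read ratio of the chorion genes was -0.18, against 0.00 for all genes, -0.12 for X genes and 0.02 for 3L genes. On the MAnorm score of the authors' deposited table, set against its median gene, the sign of the median turned over. The chorion genes had a median of 0.38, with 8 of 10 positive in place of 4, while X genes as a whole stood at 0.37. A positive score was held by 7710 of all 15421 genes and by 1544 of 2317 X genes, and 6 of the 10 chorion genes are on the X. The chorion genes had a median of 9 dBigH1 reads, against 20 for all genes. Among 5402 genes of 300 to 1500 bp, the size of most of them, the median was 10 reads and the ratio -0.06.

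**Figure D2:**
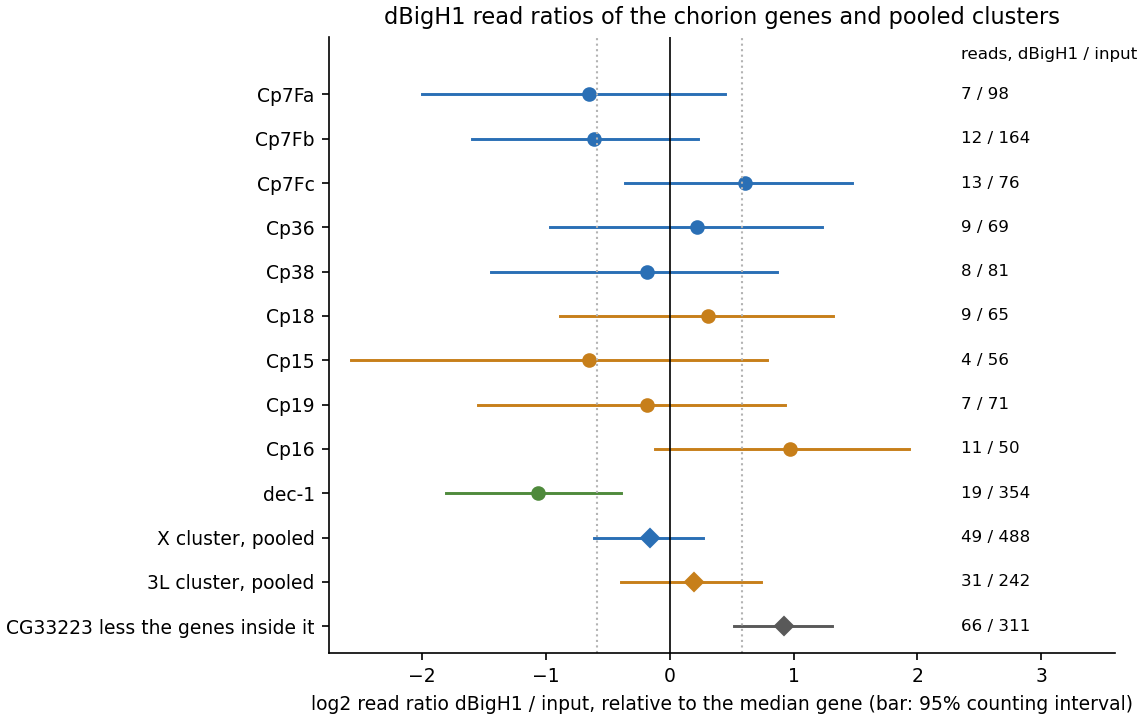
Log2 read ratio of dBigH1 to input for each chorion gene (circles), for both pooled clusters and for the DNA of CG33223 outside the genes within it (diamonds), relative to the median gene at 0, with 95% exact Clopper-Pearson intervals; dotted lines mark 1.5-fold and numbers give the reads. Of the 10 genes, the interval of dec-1 alone leaves out 0, while that of the CG33223 remainder lies wholly above it (0.52 to 1.31).

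DNA between and beside the chorion genes of the X cluster had a higher ratio of dBigH1 to input than the genes themselves. It could be read because CG33223, an uncharacterised gene on the opposite strand (FBgn0053223, X, 8359723 to 8377918), spans the whole cluster, so that its reads included those of all 5 chorion genes and of CG12116. Whole, CG33223 had 872 input and 125 dBigH1 reads. After the reads of the 6 genes inside it were taken off, 7.68 kb were left, of which 3.47 kb are gaps between the chorion genes, 3.63 kb lie before Cp7Fa and 0.574 kb beyond Cp38.

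This remainder had 311 input reads and 66 dBigH1 reads, or 3.18 RPKM and 3.0 RPKM. Its dBigH1 level was above, and its input level below, the 1.91 and 4.28 RPKM of the chorion genes. The log2 read ratio of the remainder was 0.92 (0.52 to 1.31), and that of the chorion genes was lower by 1.08, with an interval for genes minus remainder from -1.68 to -0.48. This comparison was chosen after the values were seen, and it takes reads in overlapping genes as counted in each gene, as they were in all 120 sets of listed genes with identical coordinates. Base composition differs between coding and other DNA and could not be measured from the table, and its part in the difference was not tested. Over the whole table, listed genes held 63.4% of input reads but 41.6% of dBigH1 reads, with shared reads counted in each gene. A smaller share of dBigH1 than of input in genes was thus not particular to this locus. The remainder was not compared with other DNA between genes.

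Genes around the X cluster spread to both sides of the median gene. Within 50 kb lay 15 other genes with a median log2 read ratio of -0.05 and a range from -2.80 to 1.94. CG32712, at the far end on the side of Cp7Fa, was the lowest, on 1 dBigH1 read against 62 in input (-8.12 to -0.26). The highest was FBgn0264382, a short gene without a symbol 883 bp beyond Cp38, at 1.94 on 6 dBigH1 reads against 14 (0.27 to 3.41). The nearest gene on the other side, CG12116, was at 0.29 (-0.83 to 1.25). The 14 genes that overlap no chorion gene had a median of -0.11 but a pooled ratio of 0.24 (0.09 to 0.39), because the long gene CG33181 (27682 bp), at 0.60, supplied 228 of their 427 dBigH1 reads. Cluster minus neighbours was -0.40 (-0.88 to 0.05), and without CG33181 it was -0.08 (-0.58 to 0.41). Around each locus, dec-1 included, some neighbours overlap one another. Reads that they share can enter a pool of neighbours more than once, and its interval can then be too narrow.

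Around the 3L cluster the neighbours were even. The 7 other genes within 50 kb lay between -0.37 and 0.24 with a median of 0.11, and every interval among them included the median gene. CG6511, on the Cp18 side, was at -0.16 (-0.61 to 0.26). Prm, which encodes the muscle protein paramyosin and lies 259 bp from Cp16, was at 0.12 (-0.15 to 0.38) on 137 dBigH1 reads. The cluster exceeded its neighbours by 0.16 in pooled log2 read ratio (-0.46 to 0.74), within counting error.

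The genes within 50 kb of dec-1 had a low median ratio. The 23 other genes within 50 kb had a median log2 read ratio of -0.60, with 5 intervals wholly below the median gene and 1 wholly above it. Its nearest neighbours are the ionotropic receptor genes Ir7b, at -0.23 (-1.40 to 0.76), and Ir7c, at -0.94 (-2.29 to 0.15). By comparison, 13.1% of X genes had an interval wholly below the median gene and 16.4% one wholly above it. Without the gene that overlaps dec-1, the neighbours pooled to -0.33 (-0.51 to -0.16), and dec-1 minus neighbours was -0.73 (-1.50 to -0.04). Some of these neighbours overlap one another, so shared reads can be counted more than once in their pool. The longest neighbour, CG1402, supplied 90 of their 298 dBigH1 reads at a ratio of 0.54. Without it the other 21 pooled to -0.59 (-0.80 to -0.39), and dec-1 minus neighbours was -0.47 (-1.25 to 0.23), within counting error. Of the 23 neighbours, 3 had a ratio below that of dec-1. The 11 neighbours within 20 kb had a median of -0.48. Of these 11, 0 had an interval wholly below the median gene and 0 had a ratio below that of dec-1. On the MAnorm score, set against its median gene, Ir7b was at 0.79 and Ir7c at 0.23, beside 0.37 for the median X gene.

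**Figure D3:**
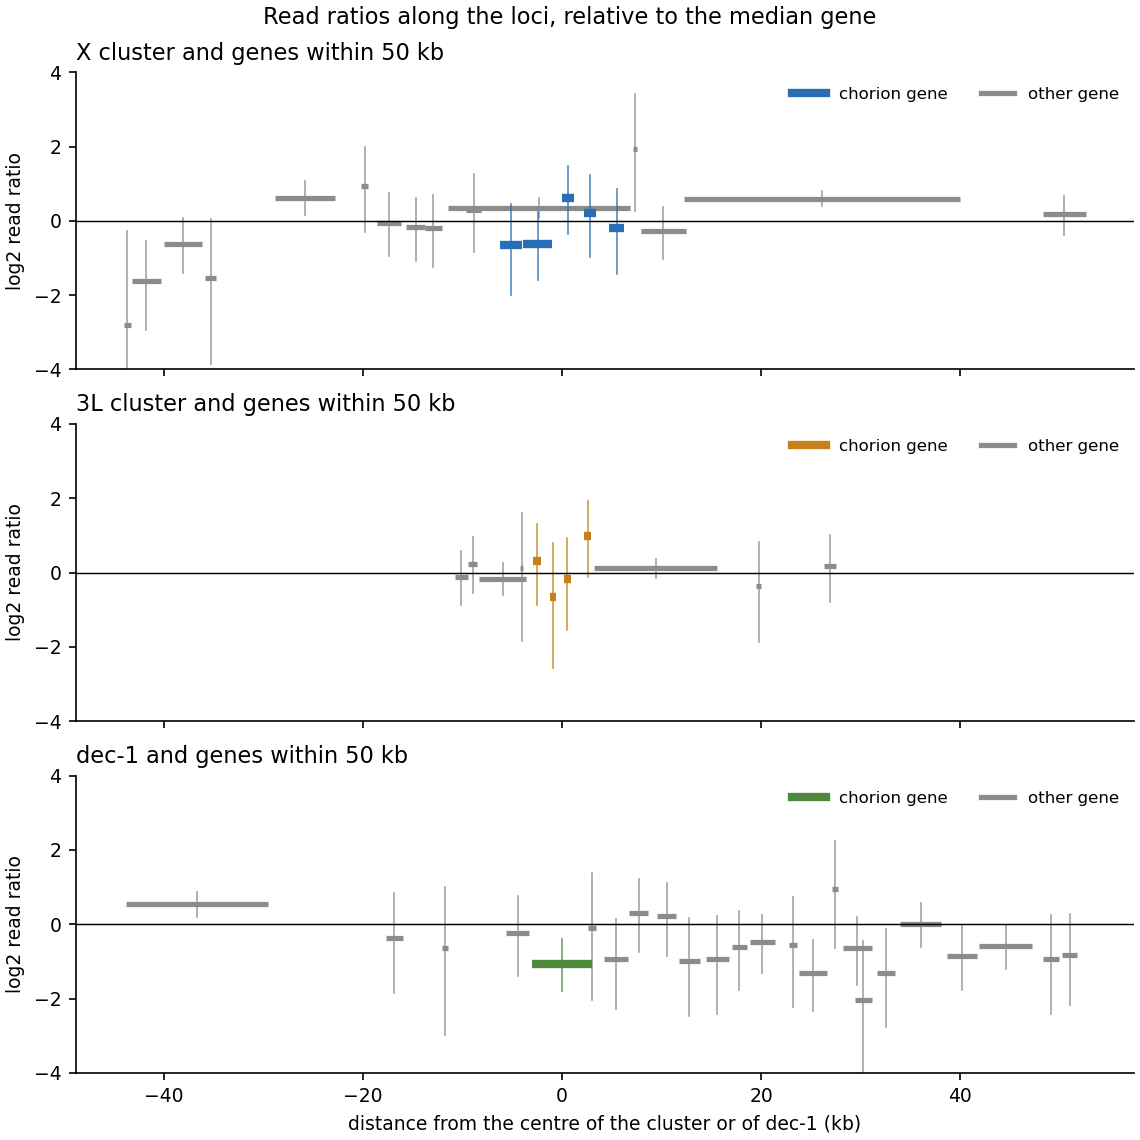
Log2 read ratio relative to the median gene along the X cluster, the 3L cluster and dec-1, with chorion genes in colour and other genes within 50 kb in grey; horizontal bars span each gene and thin vertical lines are 95% exact intervals, drawn to the axis limits. The 3L neighbours stay between -0.37 and 0.24, whereas those of the X cluster range from -2.80 to 1.94 and those of dec-1 have a median of -0.60.

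The input library shows how strongly chorion gene DNA was represented before immunoprecipitation. Input RPKM of X genes ran from 3.15 to 6.72 between the 5th and 95th percentiles, so a level somewhat below the median need not be less DNA. The X cluster had 4.28 RPKM (3.91 to 4.67, exact Poisson interval), or 0.902 of the median X gene (0.823 to 0.985). dec-1 had 0.972 of the median X gene (0.873 to 1.08). The 3L cluster had 6.77 RPKM (5.94 to 7.68), or 0.798 of the median 3L gene (0.701 to 0.905). Both clusters were thus slightly below the typical gene of their arm, and neither stood above it.

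The 3L cluster was low in input also against its neighbours, at 0.854 of their pooled level (0.750 to 0.969), while the X cluster equalled its own at 1.01 (0.923 to 1.10). Of 2959 3L genes, 12.7% had less input than the pooled 3L cluster. Its 4 members ranged from Cp16, with 4.49% of 3L genes below it, and Cp18, with 5.88%, to Cp15 with 26.5% and Cp19 with 27.1%. Input per kb of the X cluster was 0.632 of that of the 3L cluster (0.541 to 0.740), where the ratio of the median X gene to the median 3L gene was 0.559.

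**Figure D4:**
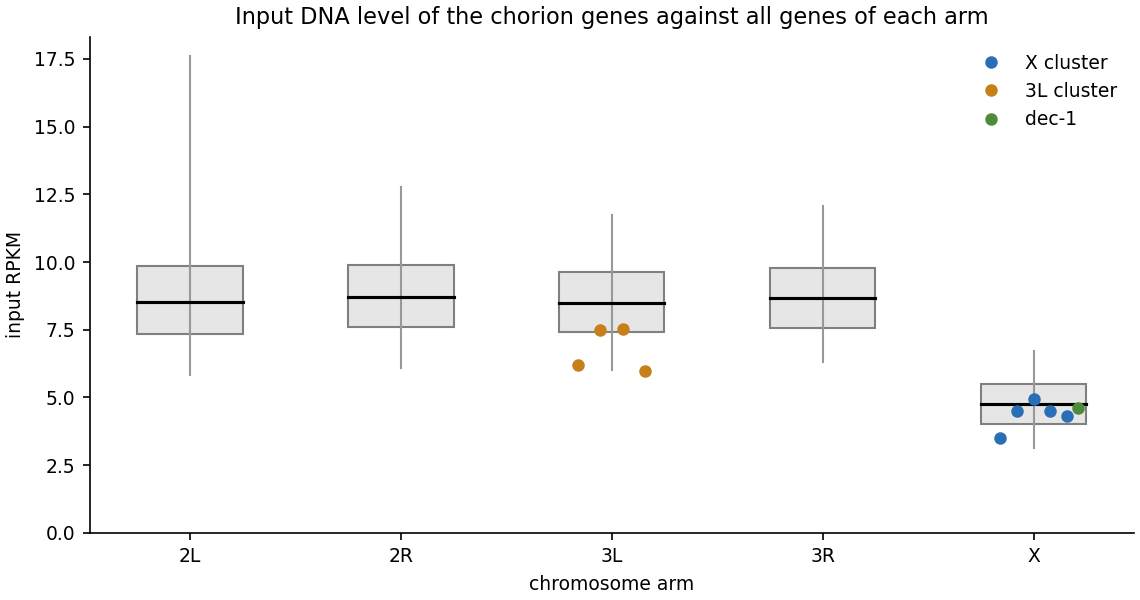
Input level in RPKM of the chorion genes (points) against all genes of each chromosome arm (box: middle 50% of genes, line: median, whisker: 5th to 95th percentile). The 4 genes of the 3L cluster lie below the 3L median of 8.48 RPKM. The chorion genes of the X lie between 3.49 and 4.95 RPKM, all but Cp7Fc below the X median of 4.74 RPKM.

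Other genes of the egg had the same median as the chorion genes and a wider range, from -3.35 to 0.80. Of 17 vitelline membrane, other eggshell and yolk genes, 3 lay at least 1.5-fold above and 6 at least 1.5-fold below the median gene, beside 16.2% and 17.3% of all genes, with a median log2 read ratio of -0.18. The 7 vitelline membrane genes, whose products form the inner eggshell layer, had a median of 0.01. Vm26Ab was the highest of the 17, at 0.80 on 9 dBigH1 reads (-0.41 to 1.85). By the interval 0 of 17 were wholly above the median gene, beside 17.9% of all genes, and 2 wholly below, beside 9.41%: fs(1)N, an eggshell gene at -0.73 (-1.37 to -0.14), and Yp2. Such shares depend on reads, and the 17 had a median of 10 dBigH1 reads against 20 for all genes.

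The 3 yolk protein genes, which fat body and follicle cells of females express, did not share a level. Yp1 had 16 dBigH1 reads against 82 in input, a log2 read ratio of 0.80 (-0.07 to 1.59). Its close neighbour Yp2 had 1 against 91, at -3.35 (-8.67 to -0.83), and Yp3 had 7 against 128, at -1.03 (-2.38 to 0.05). Yp1 and Yp2 had 3.91 and 4.40 RPKM in input, so they were alike in input level and apart in dBigH1 reads.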

How the data were processed

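The authors deposited 1 table of FlyBase genes, build dm3, which per the file headers gives log2 RPKM for the input and dBigH1 libraries and MAnorm log2 fold changes. Per the labels' protocols, 2000 testes were dissected, chromatin was sonicated to 200 to 500 bp, and libraries from 3.5 ng of DNA had 18 PCR cycles and 50-nt reads. The submitters' processing notes name CASAVA 1.9, Bowtie2, FastQC 0.10 and R 2.15. How reads were counted, and what was done with multiply matching reads, are not stated in the sources used here. Values in the deposited log2 columns were log2(RPKM + 1): with this offset 100% of values in both libraries were whole reads within 0.01 read, against 2.15% of input and 3.49% of dBigH1 values without it. The deposited MAnorm values had an SD of 0.999 over genes and were used as a score, as an alternative.

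Reads were pooled over the genes of each cluster with Python 3.11.15 and scipy 1.17.1, and the functions were tested on simulated reads. No listed gene lacked reads in either library. If genes without reads were dropped, ratios of genes with few reads can be too high. Named genes were the 10 chorion genes, the nearest gene on each side of each locus, the highest and lowest neighbour and other egg gene, and the yolk protein genes; CG33223, CG33181, CG1402, FBgn0263590 and fs(1)N were chosen after their values were seen. The genes and lists were chosen with earlier results of these data known. Sequences of the genes were not used here.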

Additional observations from a re-analysis of the deposited data

How the results depend on the processing

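No paired analysis was possible because each group had 1 library. The pooled X cluster, at -0.16, became -1.16 with library totals alone, -0.72 against the median of genes that reached 5 RPKM in both libraries (a filter that keeps genes with high dBigH1 values), and 0.46 on the MAnorm score. The rest of CG33223 in its place, an alternative chosen after seeing the data, gave 0.92. The pooled 3L cluster, at 0.19, became -0.81 with library totals alone, -0.37 against the median of genes that reached 5 RPKM in both libraries, and 0.54 on the MAnorm score. With 1 gene left out, the X cluster ranged from -0.36 to 0.03, the upper value without Cp7Fb, and the 3L cluster from -0.10, without Cp16, to 0.37. The ratio of dec-1 was negative under all 8 alternatives, from -2.07 with library totals alone to -0.11 on the MAnorm score, with -0.94 against the median X gene, -0.57 with a pseudocount of 1 and -0.13 with one of 5. Counts of chorion genes at least 1.5-fold above and below the median gene, 2 and 4, became 0 and 1 at 2-fold and 1 and 0 with a pseudocount of 1. With that pseudocount and no centring they were 0 and 7, where read ratios before centring had a median of -1.0. Among the 4 genes with at least 10 dBigH1 reads they were 2 and 2. By the interval, a rule added after seeing the data, they were 0 and 1, beside 17.9% and 9.41% of all genes. Shares over all genes are not given for the other settings, so those counts show only how the tally depends on the setting. The median of the X cluster's neighbours, -0.05, became 0.12 within 20 kb. No gene of the X cluster is free of overlap, since CG33223 spans all 5, so that alternative, and the same one for X against 3L, gave no value. The difference of dec-1 from its neighbours, -0.73, became -0.47 without CG1402, and that from the X cluster, -0.90, became -0.70 without Cp7Fc, both chosen after seeing the data and both with intervals that reach 0. The median of the chorion genes, -0.18, became 0.38 on the MAnorm score. The search for promoter motifs was not run. With 4 to 19 dBigH1 reads a gene, the intervals of single genes were 1.41 to 3.36 wide on the log2 scale, which limits what single genes can show.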
